A study of Canis lupus familiaris with 60 samples.

Results

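CCL19, CXCL16 and CXCR6 are chemokine-system genes that act on lymphocytes, and their RNA was followed in dog skin under allergen and saline patches. The probes were chosen by their array identifiers: NM_001005256 for CCL19, ENSCAFT00000036342 for CXCL16 and ENSCAFT00000022013 for CXCR6. They are 3 of 54633 identifiers on the array, and each is measured by 1 probe printed once. RefSeq names the first, and the study's own table of DEG names the others. Each gene is in that table, which was chosen on these same biopsies, so their difference between the groups of dogs is not independent evidence.

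Chemokines are small secreted or shed proteins that set the direction in which leukocytes move. CCL19 binds CCR7 and draws dendritic cells that leave the skin, and naive and memory T cells, towards lymphoid tissue. CXCL16 is made as a membrane protein of dendritic cells, macrophages and keratinocytes, is shed by ADAM10, and is the ligand of CXCR6, a receptor carried by effector and resident memory T cells and by innate-like lymphocytes.

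Skin was taken from 12 Beagle dogs aged 2 to 3 yr, 5 punch biopsies a dog, on the shaved side of the chest. Of these, 6 dogs (4 males and 2 females) had been sensitized through the skin to the house dust mite Dermatophagoides farinae; the other 6 (2 males and 4 females) were nonsensitized. Each dog gave 1 biopsy of untreated skin at 0 hr, and 1 at 6 hr and 1 at 24 hr from under a patch with 75 mg of mite allergen paste and from under a patch with 50 µl of saline. The labels do not give the sex of single dogs, so sex was not tested. Every biopsy had its own 1-colour array, which makes 10 groups of 6. Specimen 14, the 24 hr allergen site of sensitized dog 2839, was left out, so that group has 5 arrays and 59 arrays were compared. The study left it out as well.

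Levels are scaled log2 signals, so a difference of 1 is a doubling. All 3 probes were well above background on 60 of 60 arrays and passed the filter on dim spots. The median ratio of spot signal to local background was 26.5 for CCL19, 72.0 for CXCL16 and 5.35 for CXCR6, so the receptor was read nearest to the background. Over the arrays 67.7% to 80.2% of spots were well above background, and the median signal ran from 71.0 to 146. Signals are intensities, not counts of molecules, and the independent units are the 12 dogs, not the arrays. As a check of the tissue, the keratinocyte gene KRT1 and the fibroblast gene COL1A2 were bright in every group, with median log2 levels of 16.60 to 17.14 for KRT1. Comparisons use limma across 45972 probes, and a probe is called when its adjusted p is below 0.05 and its change at least 1.5-fold. Since the skin was read in bulk, fewer cells of a type and less RNA per cell cannot be told apart.

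CCL19 was low in untreated skin and climbed under both patches. At 0 hr its log2 level ran from 8.64 over a median of 8.70 to 9.10 in sensitized dogs (mean 8.80 ± 0.20 SD, n = 6). In nonsensitized dogs the untreated level ran from 7.55 over a median of 8.11 to 8.69 (mean 8.12 ± 0.39, n = 6). The ranges of the untreated groups touch, with the sensitized dogs at the upper end. At 6 hr the saline sites of sensitized dogs ran from 7.98 over 9.24 to 9.97 (mean 9.12 ± 0.70) and their allergen sites from 8.87 over 10.37 to 10.48 (mean 10.00 ± 0.67). The 6 hr saline sites of nonsensitized dogs ran from 8.98 over 9.45 to 9.66 (mean 9.34 ± 0.28) and their allergen sites from 8.36 over 9.66 to 10.52 (mean 9.54 ± 0.75). All 4 groups at 6 hr overlap. At 24 hr the saline sites stood alike: 10.74 over 11.51 to 11.91 in sensitized dogs (mean 11.41 ± 0.39) and 10.87 over 11.35 to 12.27 in nonsensitized dogs (mean 11.44 ± 0.50). The 24 hr allergen sites of sensitized dogs 2838, 2840, 2841, 2853 and 2855 were at 11.75, 12.04, 11.52, 12.50 and 11.84 (mean 11.93 ± 0.37, n = 5). Those of nonsensitized dogs ran from 9.33 over 9.94 to 10.59 (mean 10.00 ± 0.54). So the allergen sites separated fully by 24 hr: each of the 5 sensitized sites lay above each nonsensitized site, and the nonsensitized allergen sites also lay below all 12 saline sites of that time. How many of all probes separate in this way was not counted. Between these allergen sites 16937 of 45972 probes had an unadjusted limma p under 0.05, so the separation is not shown to be particular to CCL19.

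CXCL16, the ligand of CXCR6, had the same order at 24 hr within a narrower range. Its untreated log2 level ran from 10.11 over a median of 10.83 to 11.01 in sensitized dogs (mean 10.66 ± 0.35, n = 6) and from 10.33 over 10.62 to 10.84 in nonsensitized dogs (mean 10.60 ± 0.21, n = 6). At 6 hr the sensitized dogs held 10.28, 10.99 and 11.34 as lowest, median and highest at saline sites (mean 10.90 ± 0.41) and 10.95, 11.55 and 12.15 at allergen sites (mean 11.57 ± 0.50). The nonsensitized dogs held 10.83, 11.04 and 11.53 at 6 hr saline sites (mean 11.09 ± 0.28) and 11.06, 11.32 and 12.19 at allergen sites (mean 11.49 ± 0.47). Untreated groups overlap, and so do the 6 hr groups. At 24 hr the saline sites ran from 11.00 over 11.48 to 11.87 in sensitized dogs (mean 11.48 ± 0.34) and from 10.97 over 11.67 to 11.92 in nonsensitized dogs (mean 11.57 ± 0.35). The allergen sites of dogs 2838, 2840, 2841, 2853 and 2855 were at 12.01, 12.33, 11.83, 12.13 and 12.37 (mean 12.13 ± 0.23, n = 5). In nonsensitized dogs the 24 hr allergen sites ran from 10.81 over 11.02 to 11.14 (mean 11.00 ± 0.13). Again the allergen sites of the groups did not overlap at 24 hr, while the saline sites did. The share of all probes without such an overlap was not counted here either.

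CXCR6, the receptor, was dim and nearly level until 24 hr. Untreated skin gave log2 levels of 6.82, 6.93 and 7.07 as lowest, median and highest in sensitized dogs (mean 6.94 ± 0.10, n = 6) and of 6.68, 6.99 and 7.10 in nonsensitized dogs (mean 6.94 ± 0.15, n = 6). At 6 hr the sensitized dogs ran from 6.12 over 6.72 to 7.00 at saline sites (mean 6.66 ± 0.31) and from 6.74 over 6.94 to 7.27 at allergen sites (mean 6.99 ± 0.22). The nonsensitized dogs ran from 6.59 over 6.84 to 7.13 at saline sites (mean 6.88 ± 0.19) and from 6.81 over 7.04 to 7.28 at allergen sites (mean 7.03 ± 0.20). These groups all overlap. The 24 hr saline sites held 6.82, 7.34 and 7.57 in sensitized dogs (mean 7.29 ± 0.27) and 7.07, 7.40 and 7.69 in nonsensitized dogs (mean 7.41 ± 0.22). At the 24 hr allergen sites dogs 2838, 2840, 2841, 2853 and 2855 were at 7.93, 7.55, 7.45, 7.90 and 7.40 (mean 7.64 ± 0.25, n = 5). The nonsensitized dogs held 6.78, 7.10 and 7.26 there (mean 7.07 ± 0.18). The lowest sensitized allergen site was still above the highest nonsensitized one, by a narrow gap. As for the ligands, the share of all probes with such a gap was not counted.

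Ordered by mean level, each of the 3 genes was highest at the 24 hr allergen sites of sensitized dogs and next highest at the 24 hr saline sites of nonsensitized dogs. Neighbours in the order overlapped in their ranges in 8 of 9 steps for CCL19 and in 9 of 9 steps for CXCL16 and for CXCR6. The exception was a step of 1.40 in CCL19 from the 24 hr saline sites of sensitized dogs down to their 6 hr allergen sites.

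**Figure D1:**
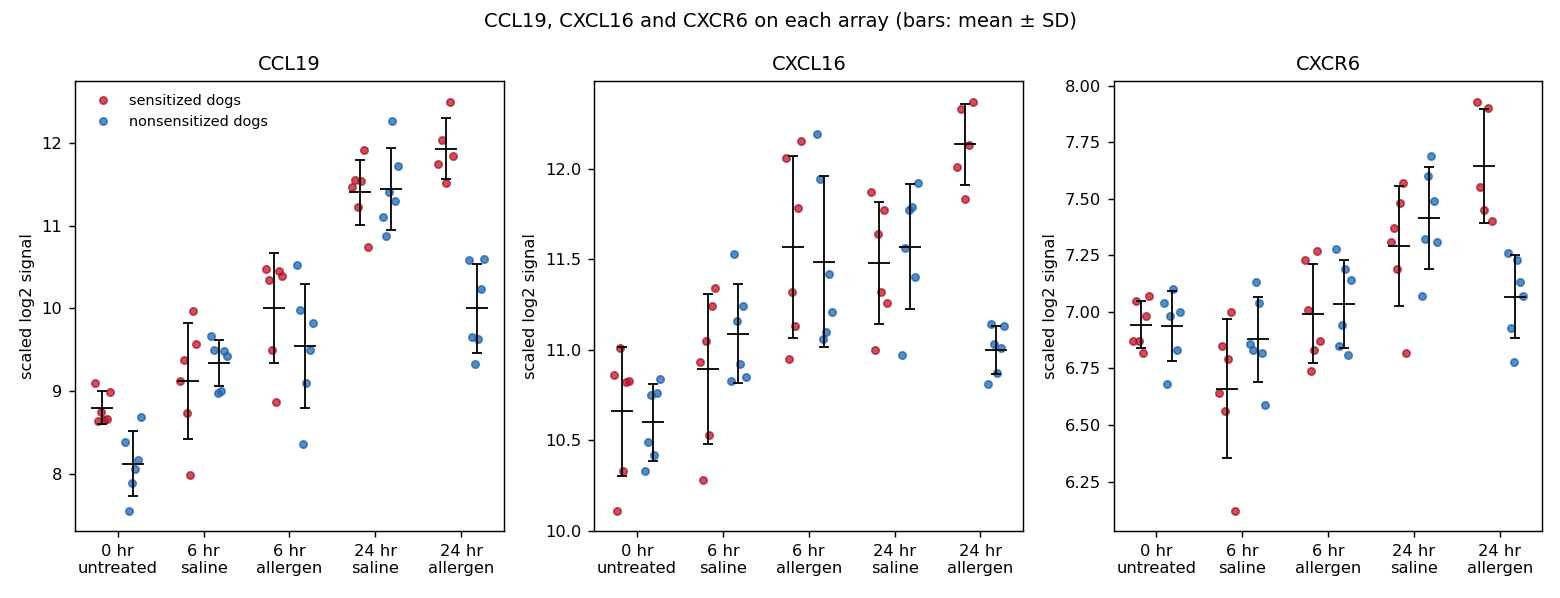
Scaled log2 signal (vertical axes) of CCL19, CXCL16 and CXCR6 by time and site, with 1 point for each of 59 arrays, red for sensitized and blue for nonsensitized dogs, and bars for the mean ± SD. The saline sites of the groups of dogs lie together at 24 hr, whereas the allergen sites part: CCL19 has a mean of 11.93 in sensitized and 10.00 in nonsensitized dogs.

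A question of the study was whether the response to the allergen over saline differed between the groups of dogs. This is the interaction of site and sensitization. At 24 hr this difference was positive for all 3 genes, and 3 of 3 were called where 0.940% of all probes were (432 of 45972, 276 higher and 156 lower). The response of CCL19 was 1.97 log2 units higher in sensitized dogs (SE 0.42, 3.91-fold, 95% interval 1.13 to 2.80, limma adjusted p = 0.0131). CXCL16 differed by 1.23 (SE 0.28, 2.34-fold, interval 0.66 to 1.80, adjusted p = 0.0192). For the receptor CXCR6 the difference was 0.70 (SE 0.18, 1.63-fold, interval 0.34 to 1.06, adjusted p = 0.0347). By p the genes ranked 60, 169 and 338 among all probes.

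The changes within single dogs show how the interaction is made up. CCL19 changed from saline to allergen site by 0.28, 0.81, −0.02, 0.59 and 1.09 log2 units in the sensitized dogs, higher in 4 of 5 (mean 0.55 ± 0.44 SD). It was lower at the allergen site in 6 of 6 nonsensitized dogs, from −2.64 over a median of −1.18 to −0.52 (mean −1.44 ± 0.77). No change of a sensitized dog reached into the range of the nonsensitized dogs. CXCL16 changed by 0.14, 0.69, 0.51, 0.35 and 1.11 in the sensitized dogs (mean 0.56 ± 0.37, higher in 5 of 5). Its change ran from −0.92 over −0.58 to −0.16 in nonsensitized dogs (mean −0.57 ± 0.29, lower in 6 of 6). These changes did not overlap either. The share of all probes whose changes do not overlap between the groups of dogs was not counted. CXCR6 changed by 0.62, 0.36, −0.02, 0.33 and 0.58 in the sensitized dogs (mean 0.37 ± 0.26, higher in 4 of 5) and from −0.82 over −0.37 to 0.19 in the nonsensitized dogs (mean −0.35 ± 0.33, lower in 5 of 6). Here 1 dog of each group went the other way and the changes overlap.

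With the dogs as the units, a 2-sided exact permutation of the sensitization labels over 5 and 6 dogs, with 462 arrangements, can reach a smallest p of 0.00216. The difference in mean change was 2.00 for CCL19 (exact p = 0.00433), 1.13 for CXCL16 (exact p = 0.00216, the smallest possible) and 0.72 for CXCR6 (exact p = 0.00649). Inside the nonsensitized dogs alone, exact sign flips gave p = 0.0312 for CCL19 and for CXCL16, the smallest that 6 dogs allow, and p = 0.0625 for CXCR6. For the 5 sensitized dogs the smallest possible value is 0.0625, so no p below 0.05 can be had; exact sign flips gave 0.0625 for CXCL16 and 0.125 for CCL19 and for CXCR6.

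**Figure D2:**
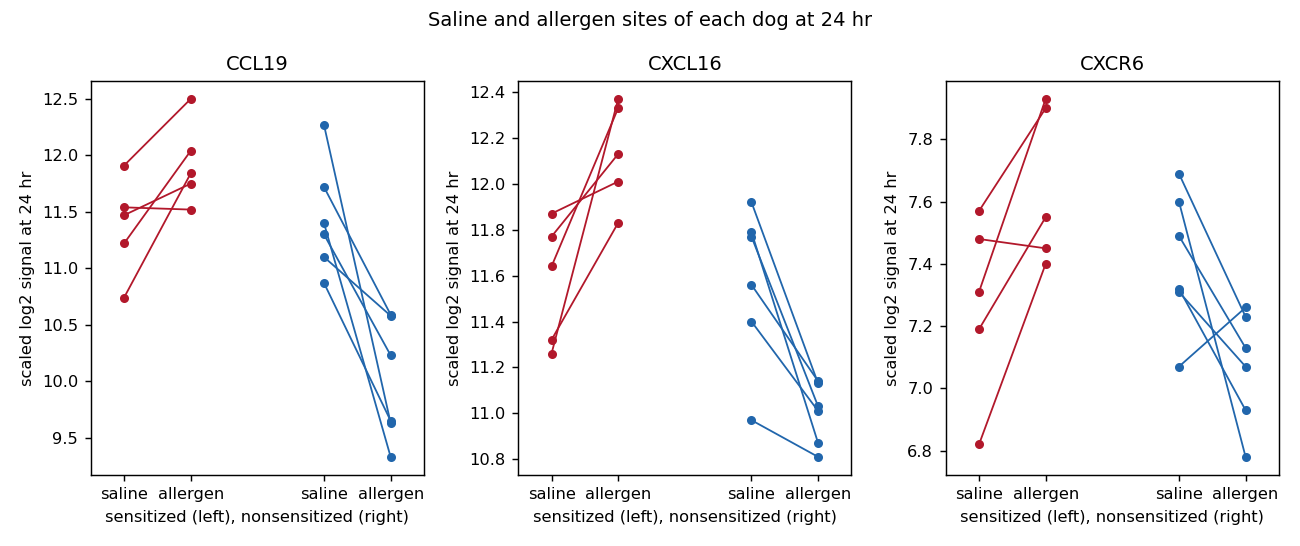
Scaled log2 signal at 24 hr (vertical axes) at the saline and the allergen site of each dog, joined by a line, for 5 sensitized dogs (red) and 6 nonsensitized dogs (blue). Lines mostly climb in sensitized and fall in nonsensitized dogs; CXCL16 goes up under the allergen in 5 of 5 sensitized dogs and down in 6 of 6 nonsensitized dogs.

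Tested apart in limma, only the lower CCL19 level at the allergen sites of nonsensitized dogs passed. It was 2.72-fold lower at allergen than at saline sites (log2 −1.44, SE 0.29, adjusted p = 0.00271), making 1 of 3 genes called where 0.766% of probes were. CXCL16 differed by −0.57 (SE 0.20, adjusted p = 0.146) and CXCR6 by −0.35 (SE 0.12, adjusted p = 0.171) in these dogs. In sensitized dogs 0 of 3 genes were called by limma against 0.274% of probes, with 2 of 3 at an unadjusted p under 0.05, beside 5149 of 45972 probes. The differences there were 0.52 for CCL19 (SE 0.30, adjusted p = 0.559), 0.65 for CXCL16 (SE 0.21, adjusted p = 0.145) and 0.36 for CXCR6 (SE 0.13, adjusted p = 0.239). With dog as a random replicate block, CXCL16 in sensitized dogs was called, at 0.59 and an adjusted p of 0.044 (adjusted p 0.0187 to 0.415 over 14 settings, of which 2 called it). With dog as a fixed block it was not called, at 0.54, under the fold limit.

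Sites of the same kind were also compared between the groups of dogs. At the allergen sites of 24 hr, CCL19 was 3.81-fold higher in sensitized dogs (log2 1.93, SE 0.30, adjusted p = 2.09e-05) and CXCL16 2.20-fold higher (1.13, SE 0.21, adjusted p = 0.000124). These are 2 of 3 genes where 7.13% of probes were called. CXCR6 was 1.49-fold higher (0.58, SE 0.13, adjusted p = 0.00127), just short of the fold limit, and was called at 0.59 with dog as a random replicate block (adjusted p = 0.000731). At the saline sites of 24 hr 0 of 3 genes were called by limma, against 2.37% of probes. An unadjusted p under 0.05 was had by 0 of 3, beside 10064 of 45972 probes. The differences were −0.04 for CCL19 (95% interval −0.61 to 0.54), −0.09 for CXCL16 (−0.48 to 0.30) and −0.13 for CXCR6 (−0.37 to 0.12).

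Slides held unequal numbers of each group, so the 24 hr values were also taken within slides. The interaction was 0.81 on slide 2 (6 arrays) and 3.27 on slide 3 (8 arrays) for CCL19, 1.07 and 1.63 for CXCL16, and 0.25 and 0.91 for CXCR6. With slide as a fixed block it was 1.87 (adjusted p = 0.0172), 1.24 (adjusted p = 0.013) and 0.67 (adjusted p = 0.0374). Nonsensitized dogs differed between allergen and saline sites by −1.35, −0.67 and −2.64 for CCL19 on slides 1, 2 and 3, by −0.55, −0.56 and −0.92 for CXCL16, and by −0.39, −0.08 and −0.46 for CXCR6. Sensitized dogs differed between sites by 0.14 and 0.63 for CCL19, 0.50 and 0.72 for CXCL16, and 0.17 and 0.45 for CXCR6 on slides 2 and 3. Between allergen sites the groups differed on those slides by 0.95 and 2.39 in CCL19, 1.02 and 1.30 in CXCL16, and 0.20 and 0.51 in CXCR6. These values had the direction of the pooled ones, but several rest on 1 array: slide 2 holds 1 allergen site of each group of dogs, and the nonsensitized dogs of slide 3 are dog 2802 alone, without which the CCL19 interaction lost its call. Between saline sites slides 1 (1 sensitized dog), 2 and 3 gave values of both signs, 0.18, 0.14 and −0.87 for CCL19 and 0.24, −0.05 and −0.34 for CXCL16, and values below 0 for CXCR6 (−0.07, −0.06 and −0.40).

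Single dogs and the scaling bear on the interaction calls. Without dog 2802 or dog 2855 the CCL19 difference was 1.73 or 1.86 with an adjusted p of 0.0739 or 0.0767, and without dog 2802 its allergen minus saline difference in nonsensitized dogs was −1.21 (adjusted p = 0.082). The CXCL16 difference was 1.19, 1.16, 1.18 and 1.12 without dogs 2800, 2802, 2847 and 2855 (adjusted p = 0.0761, 0.0847, 0.0526 and 0.107), and CXCR6 lost its call without dog 2800, 2802, 2838, 2839, 2840, 2845, 2847 or 2855 (differences of 0.61 to 0.72, adjusted p 0.057 to 0.151) and under 5 of 14 other settings.

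At 6 hr the same question gave smaller values. CCL19 differed in its response by 0.68 (SE 0.41), CXCL16 by 0.27 (SE 0.28) and CXCR6 by 0.17 (SE 0.18), each with a limma adjusted p of 1.0. Of the genes 0 of 3 were called, against 0% of all probes; limma called 0 of 45972, of which 523 had an unadjusted p under 0.05. All 6 sensitized dogs had higher CCL19 at the allergen site at 6 hr, by 0.48 over 0.85 to 1.36, and 5 of 6 nonsensitized dogs did, from −0.62 over 0.24 to 0.86. CXCL16 was higher in 6 of 6 sensitized dogs, by 0.27 over 0.64 to 1.13, and in 5 of 6 nonsensitized dogs, from −0.10 over 0.27 to 1.36. The changes of the groups overlap for both ligands. CXCR6 was higher in 6 of 6 sensitized dogs, by 0.03 over 0.23 to 0.75, and in 4 of 6 nonsensitized dogs, from −0.20 over 0.09 to 0.55.

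Without regard to dog, 0 of 3 genes were called between the 6 hr sites of sensitized dogs, against 0.418% of probes in limma. At an unadjusted p under 0.05 were 3 of 3, beside 4376 of 45972 probes. The differences were 0.88 for CCL19 (SE 0.29, 1.85-fold, adjusted p = 0.173), 0.67 for CXCL16 (SE 0.20, 1.59-fold, adjusted p = 0.108) and 0.33 for CXCR6 (SE 0.12, 1.26-fold, adjusted p = 0.291). With dog as a fixed replicate block both ligands were called at the same differences, CCL19 with an adjusted p of 0.0388 (0.0369 to 0.442 over all settings) and CXCL16 with one of 0.0147 (0.0147 to 0.381). Nonsensitized dogs had 0 of 3 genes called against 0.0348% of probes, with 1 of 3, CXCL16, at an unadjusted p under 0.05, beside 2513 of 45972 probes. Their differences were 0.20 for CCL19 (SE 0.29), 0.40 for CXCL16 (SE 0.20) and 0.16 for CXCR6 (SE 0.12). On single slides the 6 hr difference in sensitized dogs was 0.71 (slide 5) and 1.08 (slide 6) for CCL19, 0.47 and 1.25 for CXCL16, and 0.16 and 0.51 for CXCR6. In nonsensitized dogs slide 4 gave 0.43, 0.54 and −0.03.

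Untreated skin was compared to see whether the groups of dogs differed before the patches. CCL19 was 1.60-fold higher in sensitized dogs (log2 0.67, SE 0.29, limma adjusted p = 1.0, unadjusted p = 0.0226), which did not pass. CXCL16 differed by 0.06 (SE 0.20) and CXCR6 by 0.01 (SE 0.12). Of the genes 0 of 3 were called, against 0.00218% of probes.

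Both ligands had climbed above untreated skin by 6 hr at allergen sites, in both groups of dogs, and the receptor had not. In sensitized dogs CCL19 was 2.31-fold higher there (log2 1.21, SE 0.29, adjusted p = 0.00301, higher in 6 of 6 dogs) and CXCL16 1.87-fold higher (0.91, SE 0.20, adjusted p = 0.00131, 6 of 6). That is 2 of 3 genes against 3.87% of probes; CXCR6 differed by 0.05 (SE 0.12). In nonsensitized dogs CCL19 was 2.68-fold higher (1.42, SE 0.29, adjusted p = 0.00203, 6 of 6) and CXCL16 1.85-fold higher (0.89, SE 0.20, adjusted p = 0.0042, 6 of 6; 0.69 and 0.0755 without dog 2704), again 2 of 3 genes, against 1.61% of probes; CXCR6 differed by 0.10 (SE 0.12). Saline alone gave 1 of 3 called in nonsensitized dogs, against 2.26% of probes: CCL19 was 2.33-fold higher (1.22, SE 0.29, adjusted p = 0.00528, 6 of 6), CXCL16 differed by 0.49 (SE 0.20, adjusted p = 0.0984) and CXCR6 by −0.06. In sensitized dogs 0 of 3 were called at 6 hr saline sites, against 2.64% of probes in limma. At an unadjusted p under 0.05 was 1 of 3, CXCR6, beside 12481 of 45972 probes. There CCL19 differed by 0.32, CXCL16 by 0.24 and CXCR6 by −0.28.

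Both ligands also stood above untreated skin at the saline sites of 24 hr. CCL19 was 6.10-fold higher than in untreated skin in sensitized dogs (log2 2.61, SE 0.29, adjusted p = 1.43e-08, higher in 6 of 6 dogs) and CXCL16 1.76-fold higher (0.82, SE 0.20, adjusted p = 0.00121, 6 of 6), 2 of 3 genes against 9.48% of probes. In nonsensitized dogs CCL19 was 10.0-fold higher (3.32, SE 0.29, adjusted p = 5.3e-12, 6 of 6) and CXCL16 1.96-fold higher (0.97, SE 0.20, adjusted p = 4.4e-05, 6 of 6), 2 of 3 genes against 22.7% of probes. CXCR6 differed by less than the fold limit: 1.27-fold in sensitized dogs (0.34, SE 0.12, adjusted p = 0.0279, higher in 5 of 6) and 1.39-fold in nonsensitized dogs (0.48, SE 0.12, adjusted p = 0.00113, 6 of 6).

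Allergen sites at 24 hr were called above untreated skin for 3 genes in sensitized dogs and for 1 in nonsensitized dogs. The sensitized dogs had 3 of 3 genes called, against 13.7% of probes: CCL19 8.77-fold (log2 3.13, SE 0.30, adjusted p = 1.22e-10), CXCL16 2.78-fold (1.47, SE 0.21, adjusted p = 3.2e-07) and CXCR6 1.62-fold (0.70, SE 0.13, adjusted p = 3.39e-05), each higher in 5 of 5 dogs. In nonsensitized dogs 1 of 3 was called, against 17.0% of probes: CCL19 was 3.68-fold higher (1.88, SE 0.29, adjusted p = 1.1e-06, 6 of 6). CXCL16 differed by 0.40 (SE 0.20, adjusted p = 0.0899, higher in 6 of 6) and CXCR6 by 0.13 (SE 0.12, adjusted p = 0.417, higher in 5 of 6), without a call. At this time the background of calls is wide, so a call against untreated skin says little about these genes as a group; by p, CCL19 ranked 8 at the allergen sites and 7 at the saline sites of sensitized dogs, and 4 at the saline and 1069 at the allergen sites of nonsensitized dogs.

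Time and slide cannot be told apart in the comparisons with untreated skin that share no slide. These are the 24 hr saline sites of both groups of dogs, and the 24 hr allergen and 6 hr saline sites of nonsensitized dogs. Slides 6 to 8 carry the untreated skin, and slides 1 to 3 carry all but 1 of the biopsies of 24 hr among the 59 arrays compared. Slide 8 holds that array, the 24 hr allergen site of sensitized dog 2840, which exceeded the untreated sites there by 3.35 for CCL19, 1.61 for CXCL16 and 0.65 for CXCR6 (4 arrays). For 6 hr allergen sites, slides 6 and 7 gave 1.34 and 1.53 for CCL19, 1.24 and 0.48 for CXCL16, and 0.18 and −0.05 for CXCR6 in sensitized dogs, and slide 8 gave 0.76, 0.32 and 0.17 in nonsensitized dogs. At 6 hr saline sites of sensitized dogs slide 6 gave 0.25 for CCL19, −0.01 for CXCL16 and −0.34 for CXCR6. With slide as a fixed block the 6 hr calls were lost for both ligands (CCL19 1.23, 1.49 and, at saline sites, 1.27; CXCL16 0.65 and 0.38), as were 24 hr calls of CCL19 at nonsensitized allergen sites (2.15), CXCL16 at saline sites (1.03 and 0.94) and CXCR6 at sensitized allergen sites (0.57).

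Ligand and receptor were then set against each other over the arrays. Across 59 arrays CXCR6 had a Pearson correlation of 0.52 with its ligand CXCL16 (Spearman 0.47) and of 0.73 with CCL19, which binds another receptor (Spearman 0.69). The ligands correlated at 0.76 with each other (Spearman 0.76). Without the 2 arrays farthest from the median these were 0.48, 0.68 and 0.74. Arrays share dogs and groups, so these are descriptions and carry no p.

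Most of the relation of CXCR6 with CXCL16 lay between the groups. With the 10 group means removed, CXCL16 and CXCR6 correlated at 0.05 (Spearman 0.06), CCL19 and CXCR6 at 0.39 (0.40), and CCL19 and CXCL16 at 0.49 (0.47). Among the 12 arrays of 0 hr the raw correlations were −0.13, 0.32 and 0.31 in that order, among the 24 arrays of 6 hr 0.31, 0.35 and 0.68, and among the 23 arrays of 24 hr 0.65, 0.80 and 0.76. The receptor had its highest correlation with either ligand at 24 hr. The groups of dogs gave like values: 0.56, 0.78 and 0.79 over 29 arrays of sensitized dogs and 0.45, 0.69 and 0.71 over 30 arrays of nonsensitized dogs.

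Inside a group each point comes from a different dog. In 9 groups of 6 dogs the correlation of CXCL16 and CXCR6 ran from −0.70 over a median of 0.11 to 0.66, with 5 of 9 positive, and 0 of 9 had an exact permutation p under 0.05. CCL19 and CXCR6 ran from −0.72 over 0.61 to 0.98, with 7 of 9 positive. Their highest value was at the 24 hr saline sites of sensitized dogs (Pearson 0.98, exact permutation p = 0.00278; Spearman 0.94, p = 0.0167; 0.89 without the 2 farthest dogs), with adjusted p of 0.075 and 0.225 over 27 tests. CCL19 and CXCL16 ran from −0.16 over 0.48 to 0.84, with 8 of 9 positive, highest at the 6 hr allergen sites of nonsensitized dogs (Pearson 0.84, exact permutation p = 0.0278; Spearman 0.94, p = 0.0167; 0.72 without the 2 farthest dogs; adjusted p = 0.375 and 0.225). No relation within a group passed the adjustment.

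**Figure D3:**
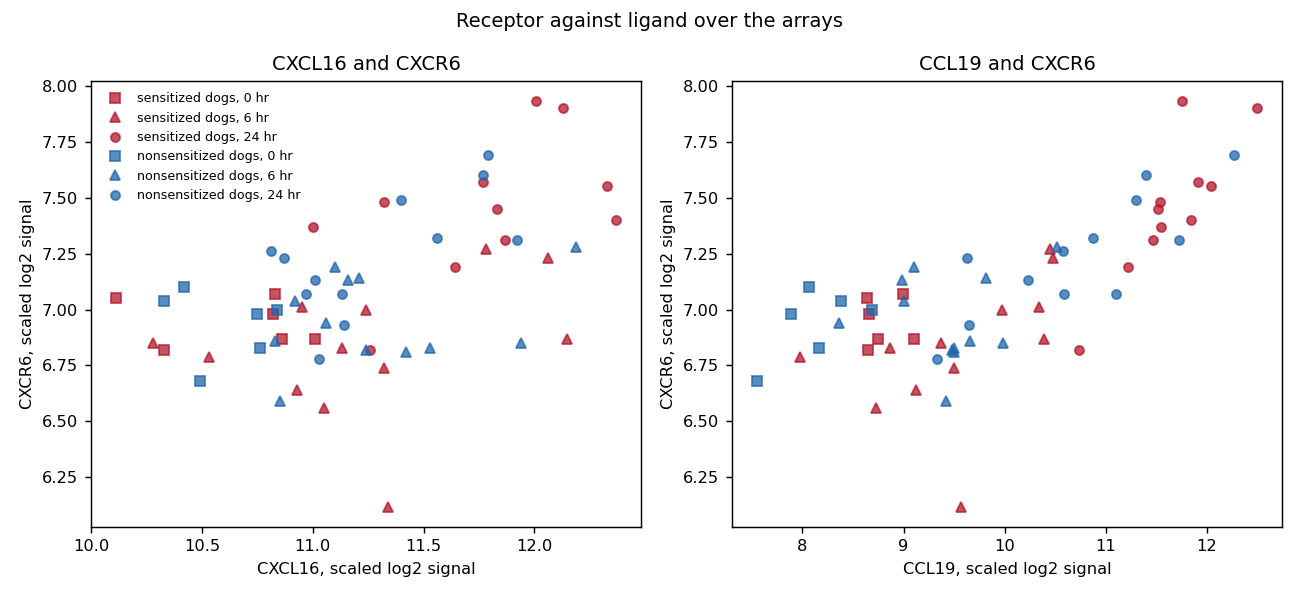
CXCR6 (vertical axes) against CXCL16 and against CCL19 (horizontal axes), all as scaled log2 signal, with 1 point for each of 59 arrays, coloured by group of dogs and shaped by time. The points of 24 hr spread upwards to the right in both panels; over all arrays the Pearson correlation is 0.52 with CXCL16 and 0.73 with CCL19.

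Other genes of the chemokine system can be placed beside the 3 only where RefSeq names the probe, which it does for 1694 of 60068 probes. Of 24 CC ligands listed, 15 were named and past the filter, and all 15 had a 24 hr interaction above 0, with a median of 1.06 beside 0.00 over all probes. Called were 4 of 15, against 0.940% of all probes, each higher in its response in sensitized dogs: CCL19, the monocyte attractants CCL2 (2.36, SE 0.61, adjusted p = 0.0361) and CCL8 (2.46, SE 0.61, adjusted p = 0.0287), and CCL13 (1.42, SE 0.34, adjusted p = 0.021), which acts on monocytes and eosinophils. CCL3, named by the study's table alone and so outside the count, differed by 0.92 (SE 0.25, adjusted p = 0.0497). These 4 ligands of the list are also the 4 called lower at allergen than at saline sites of nonsensitized dogs, where 0.766% of all probes were called (303 of 352 lower). There CCL2 differed by −2.21, CCL8 by −2.20 and CCL13 by −0.95. In sensitized dogs 1 of 15 was called between allergen and saline sites, against 0.274% of all probes: CCL17, which draws CCR4-bearing T cells, was higher there by 2.87 (SE 0.65, adjusted p = 0.021), with an interaction of 2.68 that did not pass (SE 0.90, adjusted p = 0.116). CCL20, the ligand of CCR6, had an interaction of 2.07 (SE 0.72, adjusted p = 0.131).

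At 6 hr 4 of 15 CC ligands were called higher at allergen than at saline sites in sensitized dogs, against 0.418% of probes, with a median difference of 0.81. In nonsensitized dogs limma called 0 of 15, against 0.0348% of probes, with a median of 0.36. The difference between the groups of dogs was called for 0 of 15, against 0% of all probes. CCL2 had a mean level at 24 hr of 13.95 ± 0.83 at saline and 14.10 ± 0.65 at allergen sites of sensitized dogs, and of 14.22 ± 0.57 and 12.01 ± 0.33 in nonsensitized dogs. Unlike CCL19, it was already at 14.15 ± 0.83 at the 6 hr allergen sites of sensitized dogs, beside 11.30 ± 0.27 at their saline sites. CCL17 had 24 hr levels of 8.78 ± 1.28 at saline and 11.65 ± 1.46 at allergen sites in sensitized dogs and of 8.78 ± 1.26 and 8.96 ± 1.16 in nonsensitized dogs.

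Among the CXC, XC and CX3C ligands 3 of 20 had a RefSeq name and passed the filter. CXCL16, called above, has no such name and is outside this count, as is CXCR6 outside that of the receptors. Of the 3 counted, 0 were called at the 24 hr interaction in limma, against 0.940% of all probes: CXCL8 (2.00, SE 1.18), CXCL10 (0.85, SE 0.49) and CXCL12 (0.57, SE 0.25), with a median of 0.85. Of 27 chemokine receptors 7 were named and past the filter. At the 24 hr interaction 0 of these were called, against 0.940% of all probes, with a median of 0.32. At that share, 0 calls in lists this short say little about them. CCR3, found on eosinophils, had an interaction of 1.08 (SE 0.36, adjusted p = 0.112). Of the direct partners of the 3 genes only CCL21, the other ligand of CCR7, could be read among 6; it had an interaction of 0.49 (SE 0.40, adjusted p = 0.684), and CCR7 and ADAM10 had no named probe. Of 11 cytokines and signal genes that induce such ligands 4 could be read and 0 were called at the 24 hr interaction, against 0.940% of all probes. They were LTB (1.11, SE 0.46), IL18 (0.53, SE 0.23), TNF (0.33, SE 0.15) and NFKB1 (0.27, SE 0.18), with a median of 0.43.

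Markers of the cells that make or answer these chemokines were measured on the same arrays, again for few genes. Of 13 T cell markers 3 were past the filter; CD28, the costimulatory receptor, had an interaction of 0.97 (SE 0.19, adjusted p = 0.00802) and was higher at allergen than at saline sites of sensitized dogs by 0.74 (adjusted p = 0.00285), while CD4 (0.04) and CD8A (0.16) were not called. The summed T cell level, led by CD4, had medians of 8.01 at allergen and 7.81 at saline sites of sensitized dogs at 24 hr, 7.45 and 7.50 in nonsensitized dogs, and 8.12 and 8.05 in the untreated skin of sensitized and nonsensitized dogs. Against untreated skin 1 of the 3 genes was called higher and 0 lower at the 24 hr allergen sites of sensitized dogs, where 13.7% of all probes were called. CD28 had mean levels of 4.84 ± 0.23 in untreated skin and 5.79 ± 0.32 at those sites, and CD4 of 7.11 ± 0.40 and 6.72 ± 0.20. In nonsensitized dogs 1 of 3 was called lower than in untreated skin at each kind of 24 hr site, against 17.0% (allergen) and 22.7% (saline) of all probes, and 1 of 3 was called lower at the 6 hr saline sites of either group of dogs, against 2.64% (sensitized) and 2.26% (nonsensitized). Of 10 NK and cytotoxic markers 2 could be read and 0 were called at the 24 hr interaction (KLRD1 0.79, PRF1 0.01), against 0.940% of all probes. Their summed medians, led by PRF1, were 6.20 to 6.53 over all 10 groups. KLRD1, 1 of the 2, was called higher than in untreated skin at the 24 hr allergen sites of sensitized dogs, against 13.7% of all probes. It was also called higher at the 24 hr saline sites of sensitized (9.48% of all probes) and nonsensitized dogs (22.7%). KLRD1 had mean levels of 4.32 ± 0.32 in untreated skin of sensitized dogs and 5.36 ± 0.73 at their 24 hr allergen sites. The group means of CD28 and of KLRD1 all lay below those of CXCR6, itself dim, so both markers were read at low signal. Of 5 B cell markers 0 were past the filter. The part of T and NK cell numbers in the CXCR6 difference was not tested.

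Of 8 macrophage markers 2 could be read, and 1 of them was called lower at the 24 hr allergen sites of nonsensitized dogs than at their saline sites, as CCL19 was, against 0.766% of all probes called. They had interactions of 1.96 for FCGR1A (SE 0.65, adjusted p = 0.113) and 0.97 for CD163 (SE 0.39, adjusted p = 0.216), and FCGR1A differed between allergen and saline sites of nonsensitized dogs by −1.79 (adjusted p = 0.0239) and CD163 by −0.91 (adjusted p = 0.0765, not called). Their summed level, led by CD163, had medians of 11.01 at allergen and 10.86 at saline sites of sensitized dogs at 24 hr, 10.03 and 11.18 in nonsensitized dogs, and 8.86 and 9.01 in untreated skin. Dendritic cell markers, 3 of 11 read, had interactions of 0.76 for CD86, 0.53 for CD80 and −0.15 for FLT3, none called, against 0.940% of all probes. Their summed medians, led by CD86, were 10.78 and 10.15 in sensitized and 10.29 and 10.39 in nonsensitized dogs. PDPN, the 1 lymphatic endothelial marker of 4, differed between allergen and saline sites of nonsensitized dogs by −1.24 (adjusted p = 0.00288) and had an interaction of 1.16 (SE 0.36, adjusted p = 0.0889). Its median level was 8.66 at those allergen sites and 9.99 at the saline sites. The part of these cells in the courses of the ligands was not tested.

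Of the remaining cell types, mast cell markers (4 of 6 read) had a median interaction of 0.84, with summed medians, led by FCER1A, of 12.22 and 11.69 at allergen and saline sites of sensitized dogs and 11.91 and 12.34 in nonsensitized dogs at 24 hr. Neutrophil markers (2 of 5) had interactions of 2.83 for S100A8 (SE 0.95, adjusted p = 0.118) and 0.06 for CXCR2, with summed medians, led by S100A8, of 17.51, 14.95, 14.90 and 14.99 in that order. Keratinocyte (KRT1 alone of 7, −0.50), endothelial (2 of 5, median 0.25) and fibroblast (3 of 5, median 0.04) markers had 0 called in limma at the 24 hr interaction, against 0.940% of all probes. Among fibroblast markers the sum, led by COL1A2, had medians of 18.29 to 18.85 over the groups.

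The named genes whose course over the 59 arrays was most like that of CCL19 were IL33 (Pearson 0.90), FCGR1A (0.90), RAN (0.89), IL13RA2 (0.89) and TIMP1 (0.88). For CXCL16 they were BIRC3 (0.88), CCL4 (0.88), TNFRSF12A (0.86), CASP4 (0.85) and CCL2 (0.84). CXCR6 was most like HSD11B1 (0.80), CD209 (0.80), CD38 (0.77), SEC61A1 (0.76) and IL33 (0.76). IL33, an alarmin of barrier cells, stands in the lists of both CCL19 and the receptor. A correlation over these arrays is common: the median over 45697 probes was −0.02, −0.03 and −0.03, but 588 probes exceeded 0.8 with CCL19, 252 with CXCL16 and 10 with CXCR6. In such an order CCL19 ranked 95 and CXCL16 2520 of all probes by their likeness to CXCR6.

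Specimen 14, the array left out, is the site missing from the sensitized 24 hr allergen group. Scaled with all 60 arrays it had log2 levels of 12.65 for CCL19, 11.45 for CXCL16 and 8.38 for CXCR6, where the other 5 sites ran from 11.52 to 12.49, 11.82 to 12.36 and 7.37 to 7.91. The saline site of the same dog was at 11.54, 10.99 and 7.35. All 3 genes were higher at that dog's allergen site than at its saline site, with CXCL16 below and the others above the rest of the group. The study left this biopsy out for its low signal, its poor correlation with the other samples and its poor RNA integrity. In the files it has the lowest median signal (70.97) and the lowest share of spots well above background (67.65%) of the 60 arrays. It also had the lowest array weight (0.049, beside a median of 1.11), so its levels are given as a description and support nothing.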

How the data were processed

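The deposited values are processed signal intensities, background-subtracted by the authors with Agilent Feature Extraction 10.7.3.1 and not scaled between arrays; the scanner files hold the same values. From there 61657 spots were filtered to 47229 (45972 probes), those that the software called well above background in 5 or more arrays of some group. Spots that the software marked as outliers were set missing (6171 values). Arrays were scaled with a reimplementation of vsn, which fits an offset and a factor for each array and takes a log2-like transform, and spots of a probe were averaged. limma 3.58.1 fitted 10 groups on 59 arrays, unpaired, with Benjamini-Hochberg adjustment over all probes; a probe was called at an adjusted p below 0.05 and 1.5-fold. Dog, slide and scan session were tried as blocks; arrays of 1 dog resembled each other (consensus correlation 0.277), and those of 1 slide less so (0.192). Gene symbols for the lists come from RefSeq (UU_Cfam_GSD_1.0); a gene with several probes is given by its brightest. Named genes are the 3 members, list genes called in the 24 hr interaction, the 4 largest differences of each list and the 5 named genes most alike; 1 gene that this rule names is not reported here. The members and lists were chosen with earlier results of these data known. No probe sequence and no genome of the array's build was at hand, so positions are not given.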

Additional observations from a re-analysis of the deposited data

Results flagged for a closer look

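The response to allergen over saline at 24 hr differed between sensitized and nonsensitized dogs for each of the 3 genes by the limma interaction, by 1.97 log2 units for CCL19, 1.23 for CXCL16 and 0.70 for CXCR6. The genes are in the study's table of DEG, chosen on these same biopsies, so this is not independent evidence. CXCR6 was called in 9 of 14 settings and lost its call in 8 of 12 fits without 1 dog.

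Specimen 14, the left-out 24 hr allergen site of sensitized dog 2839, had log2 levels of 12.65 for CCL19 and 8.38 for CXCR6 when scaled with all 60 arrays. These lie above every 24 hr saline site of the sensitized dogs, which ran from 10.73 to 11.90 for CCL19 and from 6.78 to 7.54 for CXCR6. For CXCL16 it had 11.45, inside the range of the saline sites (10.99 to 11.86).

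No array stood apart from its group in the 36 sets of 5 or 6 values tested for it, where chance marks about 1 in 20.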

How the results depend on the processing

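Over 14 settings the interaction at 24 hr was called in 14 for CCL19 (1.72 to 2.09) and CXCL16 (1.11 to 1.29) and in 9 for CXCR6 (0.57 to 0.84). It lost its call for CXCR6 with 75th percentile scaling (0.75, adjusted p = 0.0569), no scaling (0.83, 0.165), normexp background correction (0.57, 0.0222, under the fold limit), no filter (0.79, 0.0597) and only the time points compared (0.70, 0.0745), out of a range of 0.00311 to 0.165. The cause was not tested. The median signal over background of CXCR6 was 5.35, beside 26.5 for CCL19 and 72.0 for CXCL16. Scan session was added after seeing the data. Each gene is printed once, so single spots could not be compared.

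Replicate block by dog: called were CCL19 (0.88 fixed, 0.88 random) and CXCL16 (0.67 fixed, 0.67 random) at 6 hr allergen over saline in sensitized dogs, CXCL16 at 24 hr (0.59 random) and CXCR6 between 24 hr allergen sites (0.59 random). The interactions were 2.00, 1.11 and 0.72 with the dog block.

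Slide as a fixed block ended calls against 0 hr for CCL19 (1.23 and 1.49 at 6 hr allergen sites of sensitized and nonsensitized dogs, 1.27 at 6 hr saline and 2.15 at 24 hr allergen sites of nonsensitized dogs), CXCL16 (0.65 and 0.38 at 6 hr allergen sites, 1.03 and 0.94 at 24 hr saline sites) and CXCR6 (0.57 at 24 hr allergen sites of sensitized dogs). It gave CXCL16 a call at 6 hr allergen over saline in sensitized dogs (0.78). Signs turned, without a call, for CXCL16 at 0 hr (−0.14) and at 6 hr saline sites (−0.13 and −0.11) and for CXCR6 at nonsensitized 6 hr saline sites (0.03). Slide as a random block gave 1.24 for CCL19 at 6 hr saline and 0.68 for CXCL16 at 6 hr allergen sites of nonsensitized dogs (calls lost), 0.71 for CXCL16 at 6 hr allergen over saline (called) and −0.03 for CXCL16 at 0 hr. Scan session as a block ended calls for CCL19 (1.20 and 1.41 at 6 hr allergen, 1.20 at nonsensitized 6 hr saline and 2.04 at nonsensitized 24 hr allergen sites) and CXCL16 (0.68 and 0.66 at 6 hr allergen, 0.58 and 0.71 at 24 hr saline sites). It gave calls to CXCL16 at 6 hr allergen over saline (0.73) and CXCR6 at nonsensitized 24 hr saline sites (0.66), and turned CXCL16 at sensitized 6 hr saline sites (−0.05). Within single slides, values that turned sign were 0.18 and 0.14 (CCL19) and 0.24 (CXCL16) between 24 hr saline sites, −0.01 (CXCL16, 6 hr saline), −0.03 (CXCR6, 6 hr allergen over saline, nonsensitized) and −0.05 (CXCR6, 6 hr allergen over 0 hr). Without a turn of sign, CCL19 moved to −0.87 between 24 hr saline sites on slide 3. Its 24 hr interaction was 0.81 on slide 2 and 3.27 on slide 3.

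Scaling, filter and specimen 14: CXCR6 between 24 hr allergen sites was called with 75th percentile scaling (0.64), quantile scaling (0.62), no scaling (0.59), no filter (0.63), 60 arrays (0.71) and array weights (0.66). Array weights also gave calls to CXCL16 over saline in sensitized dogs at 24 hr (0.75) and 6 hr (0.71). No scaling gave calls to CXCL16 at nonsensitized 24 hr allergen sites (0.93) and CXCR6 at 24 hr saline sites (0.66 and 1.03); it shifts the median of all probes there by 0.45, 0.27 and 0.49. Normexp took the call of CXCR6 at sensitized 24 hr allergen sites over 0 hr (0.58). Near 0, CCL19 between saline sites turned to 0.02 (normexp) and 0.10 (array weights), and CXCR6 at sensitized 6 hr allergen sites to −0.02 (75th percentile).

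Without 1 dog each, the interaction ran from 1.73 to 2.15 (CCL19, 2 calls lost), 1.12 to 1.34 (CXCL16, 4 lost) and 0.61 to 0.81 (CXCR6, 8 lost). Allergen over saline for CCL19 in nonsensitized dogs ran from −1.63 to −1.21 (1 lost), CXCL16 at nonsensitized 6 hr allergen sites from 0.69 to 1.01 (1 lost) and CXCR6 between allergen sites from 0.51 to 0.64 (6 gained). Signs turned near 0 for the saline sites in CCL19 (−0.15 to 0.13) and CXCL16 (−0.21 to 0.00), 0 hr in CXCL16 (−0.01 to 0.17) and CXCR6 (−0.04 to 0.04), and CXCR6 at 6 hr allergen (−0.01 to 0.10) and saline sites (−0.11 to 0.01).

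The number of probes called at the 24 hr interaction, 432, ran from 85 (no scaling) to 1628 (dog as a fixed block) over settings, and from 15 (without dog 2855) to 760 (without dog 2704). Allergen over saline had 126 in sensitized dogs (30 without dog 2855 to 847 with array weights) and 352 in nonsensitized dogs (94 without dog 2802 to 679 with no fold limit). The shares of probes called move with them.

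Correlations by time differed from those over all arrays: CXCL16 and CXCR6 −0.13 (0 hr) and 0.31 (6 hr), CCL19 and CXCR6 0.32 and 0.35, CCL19 and CXCL16 0.31 (0 hr). With group means removed, CXCL16 and CXCR6 turned to −0.02 (75th percentile), −0.06 (60 arrays), −0.14 (0 hr) and −0.03 (sensitized dogs, beside 0.16 in nonsensitized dogs). CCL19 and CXCR6 gave 0.19 (6 hr) and 0.67 (24 hr).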

Other observations

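Against untreated skin the 15 readable CC ligands, CCL19 included, mostly stood higher at both kinds of site. At 24 hr limma called 10 higher and 1 lower at allergen sites and 7 higher and 1 lower at saline sites of sensitized dogs (medians 1.47 and 1.05), against 13.7% and 9.48% of all probes called. In nonsensitized dogs 6 were called higher and 1 lower at allergen sites and 9 higher and 1 lower at saline sites (medians 0.95 and 1.21), against 17.0% and 22.7% of all probes.

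Several named genes alike to the 3 in course over the arrays also differed at the 24 hr interaction. Of those like CCL19, IL33 differed by 1.75 (adjusted p = 0.0163), IL13RA2, the decoy receptor of IL-13, by 2.03 (adjusted p = 0.00139) and TIMP1, an inhibitor of matrix proteases, by 2.23 (adjusted p = 0.0323), while FCGR1A and RAN were not called. Of those like CXCL16, BIRC3, an inhibitor of apoptosis induced by NF-κB, differed by 2.19 (adjusted p = 0.0395) and CASP4 by 1.78 (adjusted p = 0.0372), while CCL4 (1.71, adjusted p = 0.0801) and TNFRSF12A (0.77, adjusted p = 0.216) were not called. Of those like CXCR6, HSD11B1 differed by 1.29 (adjusted p = 0.0171) and the lectin CD209 by 1.29 (adjusted p = 0.0409), while CD38 (0.84, adjusted p = 0.161) and SEC61A1 (0.54, under the fold limit) were not called. They were picked by likeness over the same arrays, so these differences are no separate evidence.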
